A study of Mus musculus with 2 samples.

Results

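The genes described here code for the molecules that bring leukocytes out of the blood: Vcam1, Icam1, Icam2, Madcam1, Sele, Selp and Ackr1, known from the vessel wall, and the leukocyte integrin subunits Itga4, Itgb7 and Itgal. They were taken by symbol and are 10 of the 50768 genes listed in both count tables. Single-cell RNA sequencing (scRNAseq) was performed on 1 library from NOD/ShiltJ mice, an inbred strain with autoimmune salivary gland disease, and 1 from CD1 mice, an outbred control strain. Both came from pooled female submandibular and sublingual glands at 20 weeks with no treatment, and the pool size is 4 mice by the study's methods and 3 by the sample labels. Epithelial and dead cells were depleted before capture, so shares of cells reflect that enrichment too. With pooled mice and 1 library per strain, no test between strains was possible. All intervals are at 95% and cover counting error only, not the spread between mice or, for levels and ratios, between cells.

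Leukocytes first roll along the vessel on E-selectin (Sele) and P-selectin (Selp), and then stop when their integrins bind ligands of the vessel wall. The pair of Itga4 and Itgb7 (α4β7) binds MAdCAM-1, Itga4 paired with the β1 chain binds VCAM-1, and Itgal paired with the β2 chain (LFA-1) binds ICAM-1 and ICAM-2. Ackr1 is an atypical chemokine receptor known from the endothelium of venules, where most leukocyte exit takes place.

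Barcodes with at least 500 unique molecular identifiers (UMIs, each 1 captured RNA molecule) and at least 300 genes were used, 6500 in the NOD and 7014 in the CD1 library, the typical barcode holding 5719.5 and 6495 UMIs (medians). A barcode with Pecam1 and Cdh5 was taken as endothelial, one with Cd3e as T, Cd79a as B and Ncr1 as NK, and the last 3 form the lymphocyte side. This gave 804 NOD and 2410 CD1 endothelial barcodes, 1886 and 85 T, 723 and 10 B, and 507 and 373 NK. A barcode that met more than 1 gate was set aside as mixed (749 and 311), among them 431 and 37 with both Cd3e and Ncr1. All 7 further endothelial markers were found in the endothelial barcodes of both libraries, summing to 6340 and 7885 CPM (counts-per-million, UMIs scaled to the total of the class). Only 18 barcode sequences were kept in both libraries. Leaving them out changed no count of the 10 genes past 2-fold between the sides, or between the libraries in endothelial, T or NK barcodes. Other values below were not all recomputed without them.

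Madcam1, the vessel addressin of gut-associated tissue, had 0 UMIs in both libraries, which allows a level of up to 0.0691 CPM over the kept NOD barcodes and 0.0607 CPM over those of CD1 (3 UMIs each). The bound is weaker in the cells that could hold it. It is 0.604 CPM in NOD and 0.167 CPM in CD1 endothelial barcodes, and 20.4 and 30.2 CPM in the few with venous markers, described below. Madcam1 was also at 0 among free RNA, measured in droplets of 10 to 100 UMIs. RNA of this ligand of α4β7 was therefore not detectable at this depth, whereas both chains of the integrin were.

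Of the genes with enough UMIs for a ratio, the vessel genes were higher in endothelial barcodes and the integrin genes on the lymphocyte side, apart from Icam1. In the NOD library 5 of the 9 genes with at least 20 UMIs were at least 2-fold higher in endothelial barcodes, where 19.8% of all genes were, and 3 were at least 2-fold higher on the lymphocyte side, against 26.0% of all genes. In the CD1 library these counts were 4 of 8 (24.1% of all genes) and 4 of 8 (20.8%). T barcodes were 1886 of the 3116 on the NOD lymphocyte side, while NK barcodes were 373 of the 468 in CD1. Levels of that side, and ratios to it, are therefore not compared between the libraries. The gates share no gene with the 10, but the selectins and integrins are themselves known markers of these cells.

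Sele was at 15.5 CPM in NOD endothelial barcodes and 0.326 CPM on the NOD lymphocyte side, a log2 ratio of 5.57 (4.46 to 6.94). Selp was at 13.9 and 0.279 CPM and Ackr1 at 9.07 and 0.140 CPM, log2 ratios of 5.64 and 6.02, the last resting on 3 lymphocyte UMIs. In CD1, Selp and Ackr1 had 48 and 42 endothelial UMIs and none on the lymphocyte side, so they were at least 4.06-fold and 3.55-fold higher in endothelial barcodes (against 3 UMIs on the lymphocyte side). For Selp in CD1 the direction turned, to a log2 ratio of -0.51, when barcodes of more than 1 gate were kept in each class they meet, since 1 such barcode with Ncr1 held 53 of the 115 Selp UMIs of that library. Sele had 12 endothelial UMIs in CD1, too few for a ratio. Endothelial barcodes held 82.8% of Sele, 78.4% of Selp and 75.0% of Ackr1 UMIs in NOD, and 70.6%, 41.7% and 73.7% in CD1, where mixed barcodes held 53.9% of Selp.

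Icam2, a ligand of LFA-1 known from resting endothelium, held 49.9% of its NOD and 87.5% of its CD1 UMIs in endothelial barcodes. It was at 184 CPM in NOD and 248 CPM in CD1 endothelial barcodes against 23.5 and 9.45 CPM on the lymphocyte side. A UMI of Icam2 was present in 56.6% (53.1 to 60.0%) of NOD and 70.5% (68.6 to 72.3%) of CD1 endothelial barcodes, and in 31.4% and 37.8% after each barcode was thinned to 2000 UMIs. In myeloid barcodes, taken for comparison, the unthinned shares were 2.33% and 2.52% at median depths of 6676 and 8039.5 UMIs, beside 5501.5 and 6719 UMIs in endothelial barcodes.

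Icam1, the inducible ligand of LFA-1, was not mainly endothelial. It was at 35.3 CPM in NOD endothelial barcodes and 56.3 CPM on the lymphocyte side, a log2 ratio of -0.67 (-0.91 to -0.44). In CD1 it was at 25.6 and 90.5 CPM, a log2 ratio of -1.82 (-2.02 to -1.63). The lymphocyte side was mostly T barcodes in NOD and mostly NK barcodes in CD1, so its Icam1 level follows this mix too. NK barcodes held the highest Icam1 level of the larger classes in both libraries, 92.4 CPM in NOD and 102 CPM in CD1, followed by myeloid barcodes with 78.5 and 52.8 CPM. T barcodes were at 52.4 and 40.1 CPM, the latter from 27 UMIs.

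Vcam1 was found outside the endothelium as well. Fibroblast barcodes held its highest level, 119 CPM (54 UMIs) in NOD and 72.2 CPM (9 UMIs) in CD1, from 43 and 11 barcodes. In NOD, the myeloid barcodes held 30.8% of all Vcam1 UMIs and the endothelial barcodes 14.2%, whereas in CD1 these shares were 25.8% and 38.1%. Myeloid and endothelial barcodes were 7.28% and 12.4% of those kept in NOD and 34.0% and 34.4% in CD1, so these shares follow class size too. NOD T barcodes had 60 Vcam1 UMIs, a level of 4.59 CPM, in 39 of 1886 barcodes (2.07%), and 46 of these UMIs lay in T barcodes with Cd4 and no Cd8. NOD B barcodes, at a similar median depth of 6036 UMIs, had it in 0 of 723, which allows up to 0.415%.

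**Figure D1:**
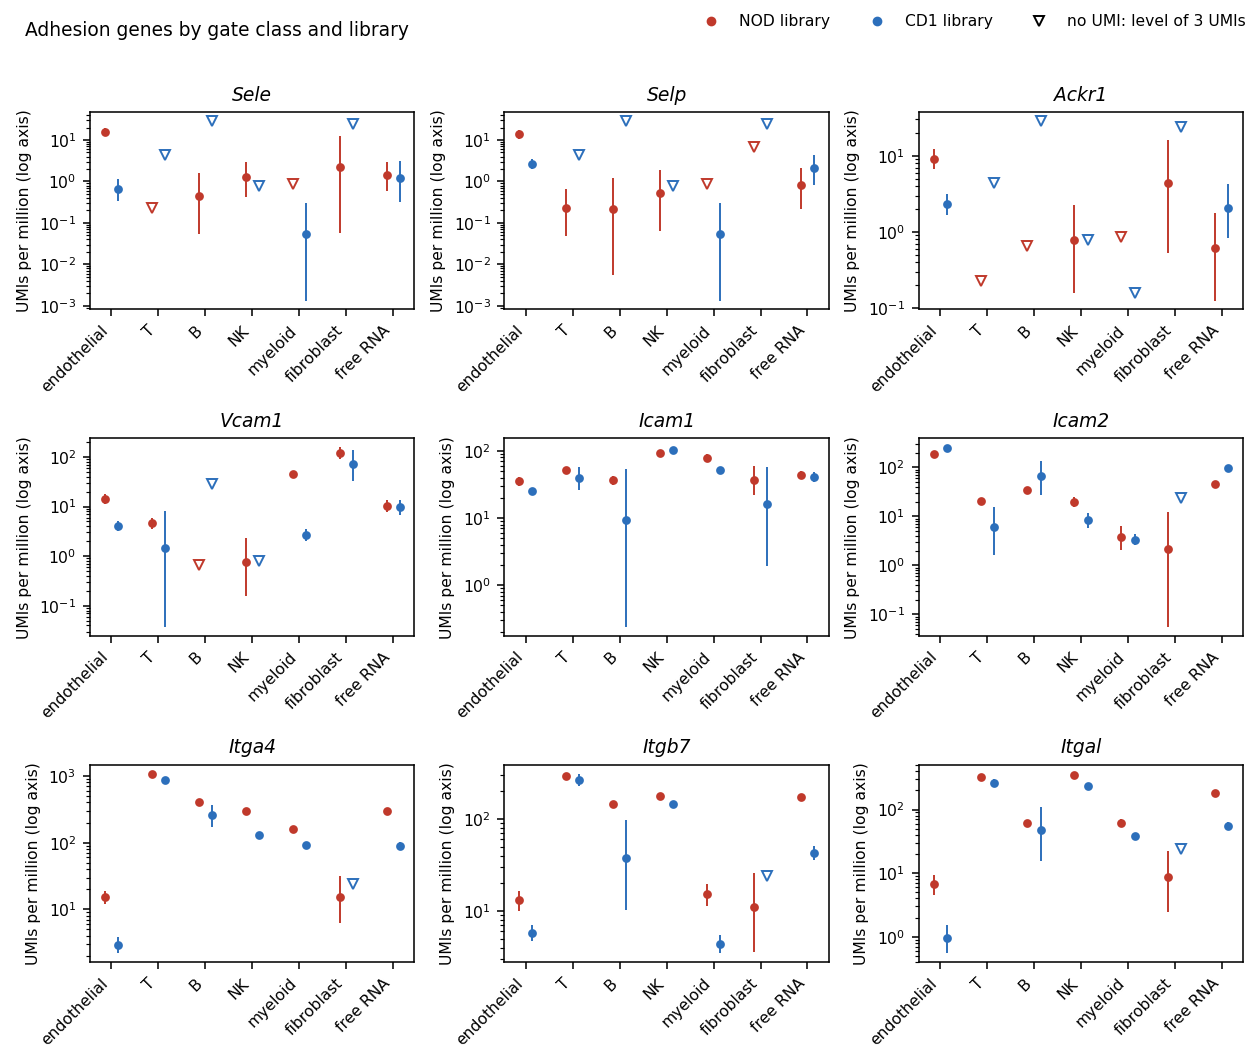
CPM (log axis) of 9 adhesion genes in each gate class and in free RNA, for the NOD library (red) and the CD1 library (blue), with exact Poisson 95% intervals as bars and open triangles at the level of 3 UMIs where none was found. Sele, Selp and Ackr1 sit in endothelial barcodes and are higher in NOD, Vcam1 is highest in fibroblast barcodes, and the integrin genes are highest in T or NK barcodes.

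In the endothelial barcodes, 7 of the 9 genes with at least 20 UMIs were at least 2-fold higher in NOD than in CD1, against 7.82% of the 13915 genes measured. None was 2-fold lower, against 3.82% of genes. The median log2 ratio of the 9 was 1.96 beside 0.07 over all genes. Of the 6 vessel wall genes, 4 were past 2-fold: Sele, Selp, Ackr1 and Vcam1. Because these are sums over a class, more cells with the RNA and more RNA per cell cannot be told apart from them alone. Intervals of levels and ratios count each UMI as independent, so they are too narrow where few barcodes hold most UMIs. In NOD endothelial barcodes, the 5 highest for each gene held 63.6% of Sele, 69.6% of Selp, 73.3% of Ackr1 and 4.61% of Icam2 UMIs.

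Sele showed the widest difference, with 77 UMIs in NOD and 12 in CD1. Its level was 15.5 CPM (12.2 to 19.4) in NOD and 0.668 CPM (0.345 to 1.17) in CD1, a 23.2-fold ratio (log2 4.54, 3.65 to 5.55). A Sele UMI was seen in 22 of 804 NOD barcodes (2.74%, 1.72 to 4.11%) and in 8 of 2410 CD1 barcodes (0.332%, 0.143 to 0.653%), and after thinning in 1.23% and 0.0897%. In T barcodes, which lack the gene, it was seen in 0 of 1886 NOD barcodes, which allows up to 0.159%, at a median of 6369.5 UMIs. NK barcodes had it in 5 of 507 in NOD (0.986%), and CD1 myeloid barcodes in 1 of 2382 (0.0420%) at a median of 8039.5 UMIs, so the endothelial share was the highest of these in both libraries. Free RNA was estimated at 1.49% of NOD and 0.861% of CD1 endothelial UMIs, and with it subtracted the log2 ratio was 4.57.

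Selp had 69 UMIs in NOD and 48 in CD1, or 13.9 and 2.67 CPM (log2 2.38, 1.83 to 2.94). Of the NOD UMIs, 28 came from 1 barcode, and without the barcode highest for Selp in each library the log2 ratio was 2.09. A single CD1 barcode with 53 Selp UMIs was not counted because it also held Ncr1 and so was mixed. With mixed barcodes kept in each class they meet, the Selp log2 ratio was 1.07, close to the 2-fold limit.

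Ackr1 had 45 UMIs in NOD and 42 in CD1, or 9.07 and 2.34 CPM (log2 1.96, 1.32 to 2.60). They came from 16 NOD and 25 CD1 barcodes, and 14 of the NOD UMIs from 1 of them. With barcodes limited to 10% mitochondrial UMIs its log2 ratio was 1.28. Vcam1 had 71 UMIs in NOD and 74 in CD1, or 14.3 and 4.12 CPM (log2 1.80, 1.31 to 2.29). It was seen in 24 NOD and 37 CD1 barcodes (2.99% and 1.54%), and after thinning in 1.36% and 0.583%.

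The intercellular adhesion molecules were within 2-fold between the libraries. Icam1 was at 35.3 CPM in NOD and 25.6 CPM in CD1 (log2 0.46, 0.20 to 0.71), and Icam2 was lower in NOD, at 184 against 248 CPM (log2 -0.43, -0.53 to -0.33). Early response genes, which tissue dissociation is known to induce, summed to 1781 CPM in NOD and 1504 CPM in CD1 endothelial barcodes, and their part in these differences was not tested.

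The 3 integrin genes were low in endothelial barcodes but also higher in NOD. Itga4 was at 15.3 against 2.95 CPM (log2 2.38), Itgal at 6.65 against 0.947 CPM (2.81) and Itgb7 at 13.1 against 5.79 CPM (1.18). All 5 further T cell markers were found in endothelial barcodes of both libraries, summing to 19.5 CPM in NOD and 1.22 CPM in CD1. Free RNA held Itga4 at 295 CPM in NOD and 89.9 CPM in CD1, and with free RNA subtracted the log2 ratios of Itga4, Itgal and Itgb7 were 2.34, 3.11 and 0.97. In the 713 NOD and 2320 CD1 endothelial barcodes with no UMI of the leukocyte gene Ptprc, the ratios were 2.13, 3.07 and 0.92 in the same order, so Itgb7 was no longer past 2-fold. The part of leukocyte RNA in these ratios was not tested.

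**Figure D2:**
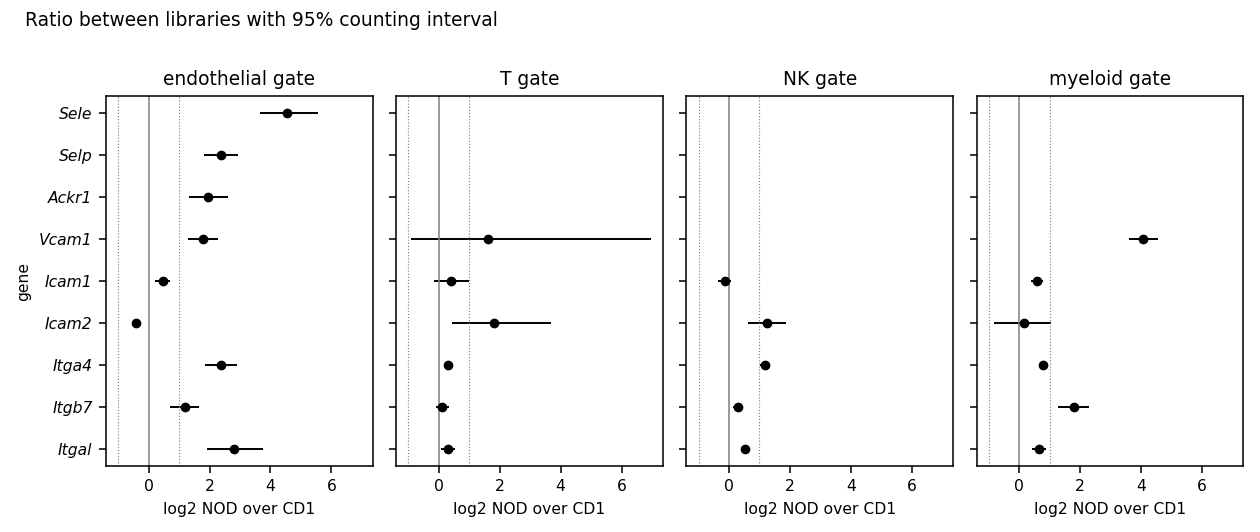
Log2 ratio of the NOD over the CD1 library in 4 gate classes, for genes with at least 20 UMIs and at least 1 in each library, with the conditional 95% interval as a bar, a solid line at 0 and dotted lines at 2-fold. Sele at 4.54 in endothelial and Vcam1 at 4.07 in myeloid barcodes lie farthest to the right.

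Few endothelial barcodes carried the venular genes. At least 1 of Sele, Selp and Ackr1 was seen in 43 NOD barcodes (5.35%, 3.90 to 7.14%) and in 45 CD1 barcodes (1.87%, 1.37 to 2.49%). At least 2 of the 3 were seen together in 12 NOD and 4 CD1 barcodes, and all 3 in 4 and 2. Sele and Selp shared 9 NOD barcodes, which is 40.9% of those with Sele and 42.9% of those with Selp. In the barcodes with any of the 3, Icam1 was at 75.8 CPM in NOD and 63.9 CPM in CD1, against 32.9 and 24.8 CPM in the other endothelial barcodes. The values with any of the 3 rest on 21 and 25 Icam1 UMIs, and Icam1 was seen in 25.6% (13.5 to 41.2%) of these NOD barcodes against 14.5% of the rest. Icam2 was at 202 and 248 CPM in them and at 183 and 248 CPM in the rest.

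Endothelial barcodes were then grouped by panels of venous, arterial, capillary and lymphatic marker genes that hold none of the 10 genes. The venous panel took 20 NOD barcodes (2.49%, 1.53 to 3.82%) and 17 CD1 barcodes (0.705%, 0.411 to 1.13%), where the median barcode held 6339.5 and 4050 UMIs. The capillary panel took 681 and 2141 barcodes and the arterial panel 59 and 130. The lymphatic panel took 0 NOD barcodes, which allows up to 0.373%, and 2 CD1 barcodes.

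Within the venous panel, Sele was at 312 CPM (229 to 416) in NOD and 30.2 CPM (6.23 to 88.2) in CD1, a log2 ratio of 3.37 (1.73 to 5.70) that rests on 3 CD1 UMIs. Among the 20 NOD barcodes 9 held it, and among the 17 of CD1 only 2. The other genes differed less there, and their intervals held 0. Selp was at 305 against 181 CPM (log2 0.75, -0.06 to 1.63), Ackr1 at 115 against 211 CPM (-0.87, -1.89 to 0.12) and Vcam1 at 61.1 against 80.5 CPM (-0.40, -1.94 to 1.18). Ackr1 and Vcam1 were thus higher in NOD over the whole endothelial gate, while no difference was detectable at this depth within venous barcodes.

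In arterial barcodes Sele, Selp and Ackr1 had no UMI in either library, which allows a level of up to 7.63 CPM in NOD and 3.47 CPM in CD1 (3 UMIs each). Vcam1 was present there at 89.1 CPM (35 UMIs in 11 barcodes) in NOD and 26.6 CPM (23 UMIs in 10 barcodes) in CD1, a log2 ratio of 1.74 (0.94 to 2.57). Capillary barcodes, by far the largest panel, held most of the Icam2 UMIs, at 187 CPM in NOD and 249 CPM in CD1 (log2 -0.42, -0.53 to -0.31). Its levels were near these in arterial (191 and 233 CPM) and venous barcodes (163 and 181 CPM). In capillary barcodes Sele was at 6.84 CPM in NOD and 0.550 CPM in CD1 (log2 3.64, 2.52 to 4.90). Of the 45 NOD Ackr1 UMIs, 20 lay in 3 barcodes of no panel.

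**Figure D3:**
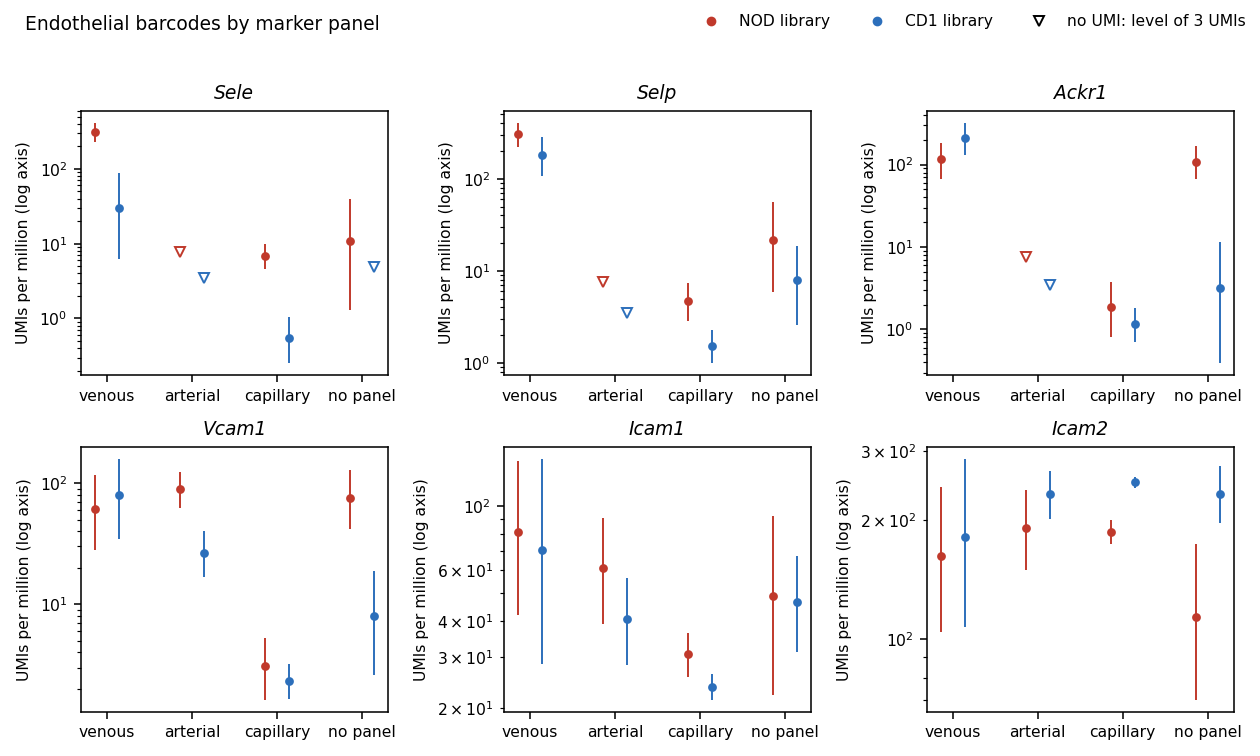
CPM (log axis) of 6 vessel genes in endothelial barcodes with venous, arterial, capillary or no panel markers, for the NOD (red) and CD1 (blue) libraries with exact Poisson 95% intervals, open triangles marking the level of 3 UMIs where none was found. Sele, Selp and Ackr1 are highest in venous barcodes, but NOD Ackr1 is nearly as high in barcodes of no panel (108 against 115 CPM). None of these genes has a UMI in arterial barcodes, where Vcam1 is present at 89.1 CPM in NOD and 26.6 CPM in CD1.

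Promoter sequence was at hand for 7 of the 10 genes in RefSeq (build GRCm38.p6), while Vcam1, Icam2 and Itgal had no entry. The motif GGNNNTTCC, a short form of the NF-κB site in which N is any base, was searched on both strands of the 250 bases before each transcription start. It was chosen with the values above known, because the selectins and Icam1 are textbook NF-κB targets. It was found for 5 of the 7 genes, in Icam1, Madcam1, Sele, Selp and Ackr1 and not in Itga4 or Itgb7, and in 15.7% of all 32851 promoter windows of that length. Madcam1, at 0 UMIs, held it as well. The windows of Sele (chr1:164047984-164048233, + strand), Selp (chr1:164115014-164115263, + strand) and Icam1 (chr9:21015690-21015939, + strand) are shown 5′ to 3′, since both selectins were past 2-fold between the libraries and Icam1 was not. Capitals mark the motif, which is a match of letters and not a measured site.
Sele: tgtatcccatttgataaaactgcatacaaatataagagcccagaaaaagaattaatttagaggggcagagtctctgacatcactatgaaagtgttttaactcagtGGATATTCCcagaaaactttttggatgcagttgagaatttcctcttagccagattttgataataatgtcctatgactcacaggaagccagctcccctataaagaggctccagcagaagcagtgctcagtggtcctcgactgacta
Selp: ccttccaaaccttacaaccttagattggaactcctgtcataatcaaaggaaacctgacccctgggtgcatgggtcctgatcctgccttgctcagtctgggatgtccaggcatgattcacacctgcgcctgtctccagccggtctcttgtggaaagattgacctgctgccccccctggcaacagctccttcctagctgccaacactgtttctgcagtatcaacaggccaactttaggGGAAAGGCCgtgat
Icam1: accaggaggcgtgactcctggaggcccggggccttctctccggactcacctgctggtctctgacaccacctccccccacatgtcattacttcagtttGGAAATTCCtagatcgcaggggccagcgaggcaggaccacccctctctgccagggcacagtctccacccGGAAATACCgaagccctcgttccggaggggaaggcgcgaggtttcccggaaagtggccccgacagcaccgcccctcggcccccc
In Sele the match begins 145 bases before the start and in Selp 14 bases before it, on the opposite strand. Icam1 holds it in 2 places, 153 and 84 bases before the start, and the first reads as a match on both strands.

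On the lymphocyte side, the integrin genes of T barcodes were within 2-fold between the libraries. Itga4 was at 1061 CPM in NOD and 868 CPM in CD1 (log2 0.29, 0.17 to 0.41), Itgal at 325 and 264 CPM (0.30, 0.08 to 0.52) and Itgb7 at 292 and 269 CPM (0.12, -0.10 to 0.34). Of 6 genes with at least 20 UMIs, 2 were at least 2-fold higher in NOD, where 9.70% of all genes were, and none was lower, against 4.84%. These 2 were Icam2, with 271 NOD and 4 CD1 UMIs (20.7 and 5.94 CPM), and Vcam1, with 60 and 1, a log2 ratio of 1.63 whose interval of -0.90 to 6.96 held 0. Only 85 T barcodes stand behind the CD1 values.

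Both chains of α4β7 were seen in 63.7% of NOD T barcodes and 52.9% of CD1 T barcodes, and in 29.5% and 31.2% after thinning to 2000 UMIs. At equal depth the order of the libraries was thus the opposite, and neither order is read as a difference. In endothelial barcodes, which should lack both, the unthinned shares were 0.498% and 0.166%. NOD B barcodes held both chains in 43.2% of cases. Their Itga4 was at 402 CPM and their Itgb7 at 145 CPM, while the 10 CD1 B barcodes held only 27 and 4 UMIs of these genes.

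Among T barcodes with Cd4 and no Cd8, Itga4 was at 1111 CPM in NOD and 1240 CPM in CD1 (log2 -0.16, -0.32 to 0.01). Among those with Cd8 and no Cd4 it was at 1162 and 950 CPM (0.29, 0.09 to 0.50), and Itgal at 371 and 189 CPM (0.97, 0.52 to 1.46). T barcodes with neither differed more in Itga4, at 762 against 262 CPM (1.54, 1.14 to 1.96), while their Itgb7, at 342 and 303 CPM, and their Itgal, at 300 and 313 CPM, were alike within counting error. The CD1 subsets hold 31, 21 and 31 barcodes. With neither gene, the median barcode held 4821 UMIs in NOD but 6825 in CD1. The NOD medians with Cd4 or Cd8 were 6816 and 6869 UMIs, and the part of depth in this split was not tested. NOD T barcodes with Foxp3, a marker of regulatory T cells, held Itga4 at 851 CPM, and only 2 such barcodes were found in CD1.

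NK barcodes showed the clearer difference in Itga4. It was at 294 CPM (1136 UMIs) in NOD and 130 CPM (491 UMIs) in CD1, a log2 ratio of 1.18 (1.02 to 1.33). Itgal was at 347 and 239 CPM (0.54, 0.42 to 0.66) and Itgb7 at 178 and 144 CPM (0.30, 0.14 to 0.47). Icam2 was at 19.9 and 8.48 CPM (1.23, 0.62 to 1.87), and Icam1 at 92.4 and 102 CPM (-0.14, -0.35 to 0.07). The Icam2 log2 ratio was 1.52 with free RNA subtracted, 0.66 with classes from clusters, where it was no longer past 2-fold, and -0.11 with mixed barcodes kept. Thus 2 of 5 measured genes were at least 2-fold higher in NOD, where 6.08% of all genes were, and none was lower, against 4.58%. The share of NK barcodes with an Itga4 UMI was 56.4% in NOD and 38.3% in CD1, and 34.4% and 15.6% after thinning. Both α4β7 chains were seen in 36.7% and 21.2%, and in 10.9% and 2.94% after thinning.

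The Itga4 difference lay mostly in NK barcodes without Eomes, a transcription factor that marks conventional NK cells. There Itga4 was at 343 CPM in NOD and 72.8 CPM in CD1 (log2 2.24, 1.96 to 2.52), while with Eomes it was at 269 and 190 CPM (0.50, 0.31 to 0.69). The median barcode without Eomes held 4168 UMIs in NOD but 8102.5 in CD1, and the part of this depth gap in the split was not tested. The 5 T markers summed to 447 CPM in NOD and 223 CPM in CD1 NK barcodes, all 5 being found in both. In the 228 NOD and 259 CD1 NK barcodes with no UMI of Cd3d, Cd3g or Trac, the Itga4 log2 ratio was 1.35.

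**Figure D4:**
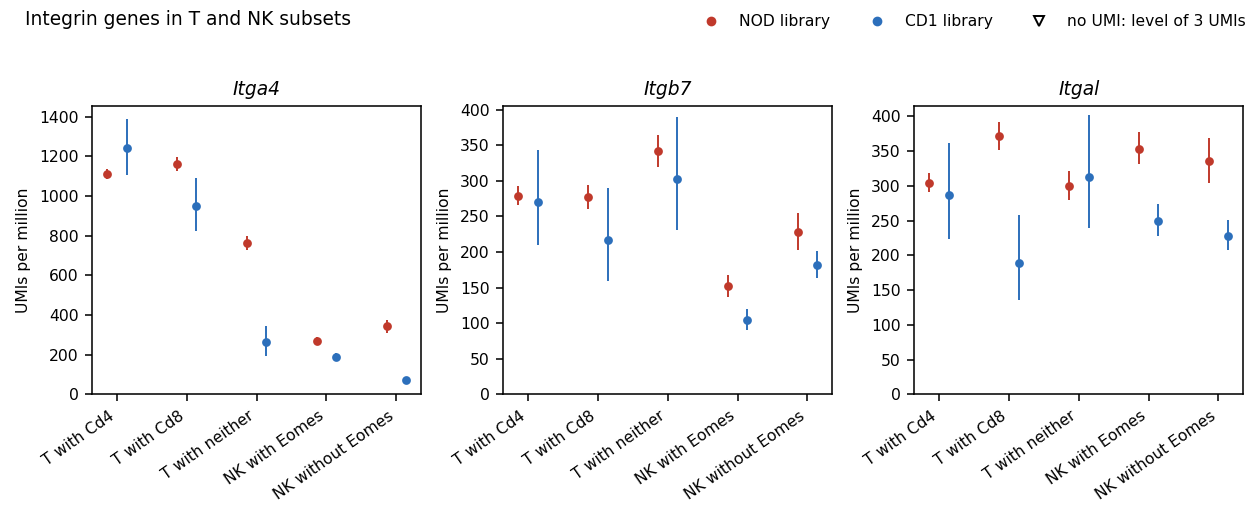
CPM of Itga4, Itgb7 and Itgal in T barcodes split by Cd4 and Cd8 and NK barcodes split by Eomes, for the NOD (red) and CD1 (blue) libraries with exact Poisson 95% intervals. Itga4 is lower in CD1 among T barcodes with neither gene (262 CPM) and NK barcodes without Eomes (72.8 CPM), while the log2 ratio of Itgb7 reaches at most 0.54, in NK barcodes with Eomes.

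Myeloid barcodes, which carry Csf1r and a macrophage gene, differed most in Vcam1. They held 154 UMIs in 473 NOD barcodes and 50 UMIs in 2382 CD1 barcodes, or 44.8 and 2.67 CPM (log2 4.07, 3.60 to 4.56). A Vcam1 UMI was seen in 69 NOD barcodes (14.6%, 11.5 to 18.1%) and 31 CD1 barcodes (1.30%, 0.886 to 1.84%), and after thinning in 6.32% and 0.485%. Barcodes with C1qa, a gate gene that 447 NOD and 2334 CD1 myeloid barcodes carried, held 150 of the NOD UMIs and all 50 from CD1. The 3 fibroblast markers were all found in myeloid barcodes but summed to only 1.75 CPM in NOD and 0.374 CPM in CD1. The log2 ratio was 4.14 with free RNA subtracted and 4.07 without the barcode highest for Vcam1 in each library.

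Of 6 genes measured in myeloid barcodes, Vcam1 and Itgb7 were at least 2-fold higher in NOD, where 7.79% of all genes were, and none was lower, against 5.57%. Itgb7 was at 15.1 against 4.38 CPM (log2 1.79, 1.26 to 2.31), and at 1.73 with free RNA subtracted. Itga4 was at 163 against 93.6 CPM (log2 0.80, 0.66 to 0.93), and Icam1 at 78.5 against 52.8 CPM (0.57, 0.37 to 0.77). The 5 T markers, all found, summed to 22.4 CPM in NOD and 1.76 CPM in CD1 myeloid barcodes, and their part in the integrin ratios was not tested.

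Other genes of the adhesion pathway were taken as a vessel list and a leukocyte list of 26 genes each, which share Fut7. In endothelial barcodes 5 of 23 measured vessel genes were at least 2-fold higher in NOD and none was lower, against 7.82% and 3.82% of all genes, and the median log2 ratio was -0.0025 beside 0.07 over all genes. The 5 were Bst1, Alcam, Nectin2, Cdh1 and Thy1. In NOD, some of them were far higher in T than in endothelial barcodes. Alcam was at 210 against 15.7 CPM, Thy1 at 337 against 4.84 CPM and Cdh1 at 86.0 against 3.43 CPM. Bst1 and Nectin2 were at only 0.612 and 0.153 CPM in NOD T barcodes. The part of T cell RNA in the endothelial ratios of Alcam, Thy1 and Cdh1 was not tested. Nectin2, a junction molecule, was at 60.7 against 18.5 CPM (log2 1.71, 1.48 to 1.94), and Bst1, a surface ADP-ribosyl cyclase, had 28 NOD UMIs and 1 in CD1. Of the leukocyte list, 8 of 21 were higher against 7.82% of all genes, with a median log2 ratio of 0.65, among them Itgb2, the β2 partner of Itgal (6.65 against 0.780 CPM), and Selplg, the ligand of the selectins. The T markers (19.5 against 1.22 CPM) and the 6 NK markers (36.7 against 6.18 CPM, all 6 found) were also higher in NOD endothelial barcodes, and their part in these counts was not tested. Itga2, a collagen-binding subunit, was lower in NOD, at 9.67 against 36.0 CPM (log2 -1.90, -2.35 to -1.47).

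In NK barcodes 5 of 25 leukocyte genes were higher in NOD and 1 was lower, where 6.08% and 4.58% of all genes were. Among the higher ones, Itgam, the αM subunit of mature NK cells, was at 71.4 against 17.5 CPM (2.03, 1.64 to 2.44). Itga2, Rasgrp2 and S1pr1, the receptor for exit from lymphoid tissue, were also higher, with log2 ratios of 1.58, 1.91 and 1.55. Itgae, the αE partner of Itgb7, was lower in NOD, at 20.7 against 64.4 CPM (-1.64, -2.02 to -1.27). The mix of NK barcodes also differed, with 263 holding Eomes and 244 not in NOD, and 143 and 230 in CD1. The part of this mix in the NK ratios was not tested. Of 17 vessel genes 3 were higher and 3 lower. For T barcodes, 1 of 25 leukocyte genes was higher (Rasgrp2) and 1 lower (Fut7), and of 18 vessel genes 2 were higher and 5 lower, beside 9.70% and 4.84% of all genes. Fut7, counted in both lists, rests on 5 CD1 UMIs, and its interval (-2.37 to 0.64) held 0. So did those of F11r, Emcn and Podxl, lower vessel genes with 3, 6 and 6 CD1 UMIs. Only the interval of Cdh1 (-1.44 to -0.90) left out 0 among the lower vessel genes. In myeloid barcodes 7 of 24 leukocyte genes were higher and none lower, and of 22 vessel genes 4 were higher and 7 lower, beside 7.79% and 5.57% of all genes. The T markers given above for myeloid barcodes were higher in NOD along with the leukocyte list, and their part was not tested. The summed endothelial markers were lower in NOD, at 12.8 against 34.3 CPM in myeloid and 22.5 against 57.5 CPM in NK barcodes. In T barcodes they were at 17.7 against 32.6 CPM, and their part in the vessel list counts was not tested.

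The genes most like each member were sought over 10 profiles, each a class of at least 30 barcodes in 1 library, by Pearson's r of log2(CPM + 10). Profiles of a library share its free RNA and depth, and the values are a description. The nearest gene was Cd2 for Itgb7 (r = 0.989), Zfp1007 for Itga4 (0.985) and Gramd1b for Itgal (0.991). It was Car7 for Icam2 (0.990), Cfb for Vcam1 (0.966), 4930404H24Rik for Icam1 (0.944), Serpina1b for Sele (0.973), Gm33561, which has 56 UMIs in all, for Selp (0.998) and Fhdc1 for Ackr1 (0.992).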

How the data were processed

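Single-cell RNA sequencing was performed on 1 NOD and 1 CD1 library, and the deposited values are raw UMI counts per gene and barcode that the authors made with Cell Ranger 8.0.0 on build GRCm39, per the processing notes. The notes also name Seurat 5.0.1 and R 4.3.1, but no filtered object was used here. Barcodes with at least 500 UMIs and 300 genes were kept, with no mitochondrial limit and no doublet removal. Counts were summed over each gate class and analysed with Python 3.11.15, numpy 2.4.6, scipy 1.17.1 and scanpy 1.11.5. The other gates were Csf1r with C1qa, Adgre1 or Lyz2 (myeloid) and Pdgfra with Dcn or Col1a1 (fibroblast). Levels have exact Poisson intervals, shares Clopper-Pearson intervals, and ratios conditional binomial intervals. A ratio needed at least 20 UMIs over both sums. A gene was counted at 2-fold, and a count of 0 was bounded at 3 UMIs per class. A barcode joined an endothelial panel with at least 2 genes of it and fewer of every other panel. The mice of a strain were pooled into 1 library, so no test was run and no batch could be separated from strain. The labels and the methods differ on the enzyme mix of the dissociation as well as on the pool size. Named genes were the members, the 2 pathway lists, the markers, and the genes most like each member. The members and lists were chosen with earlier results of these data known. The interval and ratio code was tested on simulated data with Poisson counts, so that test says nothing about UMIs clumped in few barcodes. Results were recomputed under 14 other planned settings, covering filters, gates, doublets (Scrublet scores), scaling, free RNA, clusters and thresholds. A further 3, which left out the top barcode, NK barcodes with T markers or endothelial barcodes with Ptprc, were chosen after seeing the data. One gene of the leukocyte list is counted in its totals but not reported here.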

Additional observations from a re-analysis of the deposited data

Results flagged for a closer look

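Icam2 differed between the libraries in opposite directions by class. The log2 ratio of NOD over CD1 was 1.80 in T barcodes and 1.23 in NK barcodes, but -0.43 in endothelial barcodes, which held 49.9% of NOD and 87.5% of CD1 Icam2 UMIs. The difference between classes was not tested, since there was 1 library per strain. The T value rests on 4 CD1 UMIs, and the NK value was -0.11 when barcodes of more than 1 gate were kept and 0.66 with classes from clusters.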

How the results depend on the processing

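Of 474 ratios and panel values of single genes recomputed under the alternatives, 415 stayed within their main counting interval, 57 moved outside it, and 2 more, past 2-fold at first, changed direction. Both did so when barcodes of more than 1 gate were kept in each class, Selp on the CD1 endothelial over lymphocyte side to -0.51 and Icam2 between strains in NK barcodes to -0.11, and the first follows from the single CD1 barcode with 53 Selp UMIs. Under that setting only 18 of 40 values stayed within their interval and 20 moved outside it. An endothelial gate that needed only Pecam1 or Cdh5 moved 12 of 40 outside. Keeping mixed barcodes also took the T count from 2 genes to 1, and classes from clusters took the NK count to 1. With at least 100 UMIs required, fewer genes were measured, and the counts were 4 for the endothelial comparison, 1 for T, and 5 for the sides in each library. The endothelial count was 6 or 7 of 9 under all other alternatives, the loss being Itgb7. The endothelial log2 ratios ranged from 3.94 to 4.80 for Sele, 1.07 to 2.55 for Selp, 1.28 to 2.06 for Ackr1 and 1.36 to 2.04 for Vcam1, and those of Vcam1 in myeloid barcodes from 3.92 to 4.23. Among the 57, Icam1 between strains in NK barcodes, never past 2-fold, changed sign from -0.14 to 0.25 and 0.27 with mixed barcodes kept and with clusters. No paired analysis was possible because each strain has 1 library. The venular genes rest on few UMIs, so their levels are limited by depth.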

Other observations

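Of the 115 Selp UMIs of the CD1 library, 62 (53.9%) lay in barcodes of more than 1 gate, against 7 of 88 in NOD, and 53 of them in 1 barcode that held Pecam1, Cdh5 and Ncr1. Of the 43 NOD barcodes with Sele, Selp or Ackr1, 11 were in the venous panel, and of the 45 in CD1, 7 were.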
